A study of Mus musculus with 30 samples.

Results

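The 10 genes described here, *Jun*, *Junb*, *Jund*, *Fos*, *Fosl2*, *Egr1*, *Klf6*, *Klf4*, *Myc* and *Ier3*, encode AP-1 subunits and immediate early factors. They were taken by their symbols from a table of 55450 genes, and each symbol matched 1 row. Their mRNAs were measured by RNA-Seq in whole livers of male mice, with 1 library per mouse, 5 mice per group and 6 groups in 3 experiments. In each experiment mice lacking the transcription factor CEBPA in hepatocytes (Cre+) were compared with their own *Cebpa* fl/fl controls (Cre-), which carry the same floxed alleles without Cre. All 30 mice were fed a diet rich in fat, cholesterol and fructose (HFCFD), which induces steatohepatitis with fibrosis.

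In HFCFD2W the mice had 2 weeks of diet, and the knockout mice (*Cebpa* ΔHep) carried an albumin-Cre that is active from development on. The knockout mice of HFCFD8W+T10D and HFCFD12W+T10W (*Cebpa* ΔHep,ERT2) carried a tamoxifen-inducible albumin-ERT2-Cre, and both genotypes are labelled with 8 weeks of HFCFD and 10 days of tamoxifen, or with 12 weeks of HFCFD and 10 weeks of tamoxifen (22 weeks of diet in all). The lines had been backcrossed to C57BL/6N, and ages are not given in the sources used here. Each experiment is a batch of its own, so Cre line, diet time, tamoxifen and batch change together between experiments and cannot be told apart. Albumin drives both Cre transgenes, and *Cebpa* was measured in whole liver only. The *Cebpa* mRNA left in knockout livers was 2.68% (HFCFD2W), 11.9% (HFCFD8W+T10D) and 18.6% (HFCFD12W+T10W) of the control mean, with no overlap between genotypes. Library totals ran from 7996123 to 10257347 counts, and a summed level of 44560 to 157742 CPM for 7 hepatocyte markers, *Alb* among them, was found in every library.

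AP-1 is a dimer of a JUN protein (JUN, JUNB or JUND) with a FOS protein (FOS, FOSL2 and others) or a second JUN protein, and it binds short palindromic sequences in promoters and enhancers. Some of its genes, with *Egr1*, *Klf6*, *Klf4*, *Myc* and *Ier3*, are counted among the immediate early genes. Transcription of immediate early genes rises soon after growth factors, cytokines or stress, by MAP kinases and serum response factor, without new protein synthesis. In liver they are known from regeneration after partial hepatectomy, from acute injury and from the culture of hepatocytes.

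The promoters of *Jun*, *Klf6* and *Ier3* are shown because these genes, together with *Myc*, carried the genotype differences described below. The difference of *Ier3* is a description only, because its counts in the control livers were very low. The sequences are from RefSeq (GRCm38.p6) and read 5′ to 3′ on the strand of the gene, from 250 bases before the RefSeq start to the last base before the first annotated start. Capitals mark matches, on either strand, to 4 of the motifs searched. These were TGACATCA, the CCAAT box, the GGGCGG sequence of a GC box, and the E-box sequence CACGTG.
Jun, chr4:95052223-95052472, minus strand: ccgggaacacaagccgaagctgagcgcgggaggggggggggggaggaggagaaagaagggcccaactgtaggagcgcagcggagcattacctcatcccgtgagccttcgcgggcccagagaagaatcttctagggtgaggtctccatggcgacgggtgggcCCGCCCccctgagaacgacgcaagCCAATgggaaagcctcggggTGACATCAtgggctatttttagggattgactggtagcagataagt
Klf6, chr13:5861239-5861481, plus strand: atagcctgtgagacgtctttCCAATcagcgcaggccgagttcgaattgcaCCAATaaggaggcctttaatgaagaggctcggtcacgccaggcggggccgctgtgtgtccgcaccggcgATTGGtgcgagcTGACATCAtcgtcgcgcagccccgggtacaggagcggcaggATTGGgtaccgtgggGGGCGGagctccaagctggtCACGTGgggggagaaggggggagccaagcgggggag
Ier3, chr17:35821463-35821683, plus strand: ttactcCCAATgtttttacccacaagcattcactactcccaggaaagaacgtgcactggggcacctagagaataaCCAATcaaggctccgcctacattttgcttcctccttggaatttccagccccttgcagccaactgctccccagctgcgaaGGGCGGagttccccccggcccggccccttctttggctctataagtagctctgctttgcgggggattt

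Windows of 8 of the 10 genes were searched, each of 300 bases and ending 50 bases after the RefSeq start. *Myc* and *Egr1* were not searched, and the search left out chromosome 18, where *Egr1* lies. *Jun* and *Klf6* both held TGACATCA, which starts 45 bases before the start of *Jun* and 119 bases before that of *Klf6*. In *Jun* this sequence is a known site of JUN and ATF2 dimers. It was present in 3.37% of all 32544 promoter windows and in none of the other 6 windows. The AP-1 sequence TGANTCA (7.79% of all windows), the cAMP response element TGACGTCA (1.8%) and the CArG box of serum response factor (1.64%) matched in none of the 8 windows. The C/EBP sequence TTNNGNAA (40.7% of all windows) matched only in *Jund*, 152 bases before its start. CCAAT (37.4%) matched in *Jun*, *Junb*, *Klf6* and *Ier3*, GGGCGG (35.9%) in *Jun*, *Klf4*, *Fosl2*, *Fos*, *Klf6* and *Ier3*, CACGTG (7.17%) in *Klf4* and *Klf6*, and TATAAA (13.6%) in *Fos* and *Junb*. Apart from 2 GGGCGG matches in *Klf4* that share a base, no matches overlapped. These are matches of letters in a short window and no measure of binding.

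The genes without a printed promoter are listed by position (GRCm38) in GENCODE M21, the annotation whose identifiers the table carries. *Junb* lies at chr8:84974484-84978718 on the minus strand and *Jund* at chr8:70698949-70700616 on the plus strand. *Fos* lies at chr12:85473890-85477273 and *Fosl2* at chr5:32135801-32157842, both on the plus strand. *Klf4* lies at chr4:55527143-55532466 on the minus strand, *Myc* at chr15:61985391-61990374 and *Egr1* at chr18:34859823-34864984, both on the plus strand. *Jun* and *Jund* are genes with 1 exon. *Junb* overlaps *Prdx2* on the opposite strand, which had up to 1178 counts in a library. The libraries were made with a stranded kit, but the strand setting of the counting is not given in the sources used here, so the *Junb* values carry that uncertainty. The genes overlapping *Jun* and *Jund* on the opposite strand had at most 6 and 3 counts.

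Levels were compared between genes as TPM, which is scaled for transcript length but not corrected with the library factors used for the tests. *Jund*, the AP-1 subunit that is present in most resting tissues, had the highest mean of the 10 genes in all 6 groups, from 6.21 ± 1.38 TPM (SD, n = 5) in controls of HFCFD2W to 19.5 ± 4.16 TPM in knockout livers of HFCFD12W+T10W. *Klf4* was the lowest of the 10 in all groups of the longer experiments and did not exceed 1.99 TPM in the mean of any group. Among the 3 JUN genes, *Jun* made up 17.4% ± 3.9 of the summed TPM in control livers of HFCFD2W (SD, n = 5, range 11.9 to 21) and 34.6% ± 6.14 in knockout livers (range 26.9 to 42.7). The ranges did not overlap in that experiment. The share was 24.6% ± 5.21 against 23% ± 2.92 (HFCFD8W+T10D) and 29.7% ± 8.63 against 34.4% ± 1.83 (HFCFD12W+T10W), with overlap in both. *Jund* kept the larger mean share throughout, from 37.0% to 58.3% of the JUN genes.

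**Figure D1:**
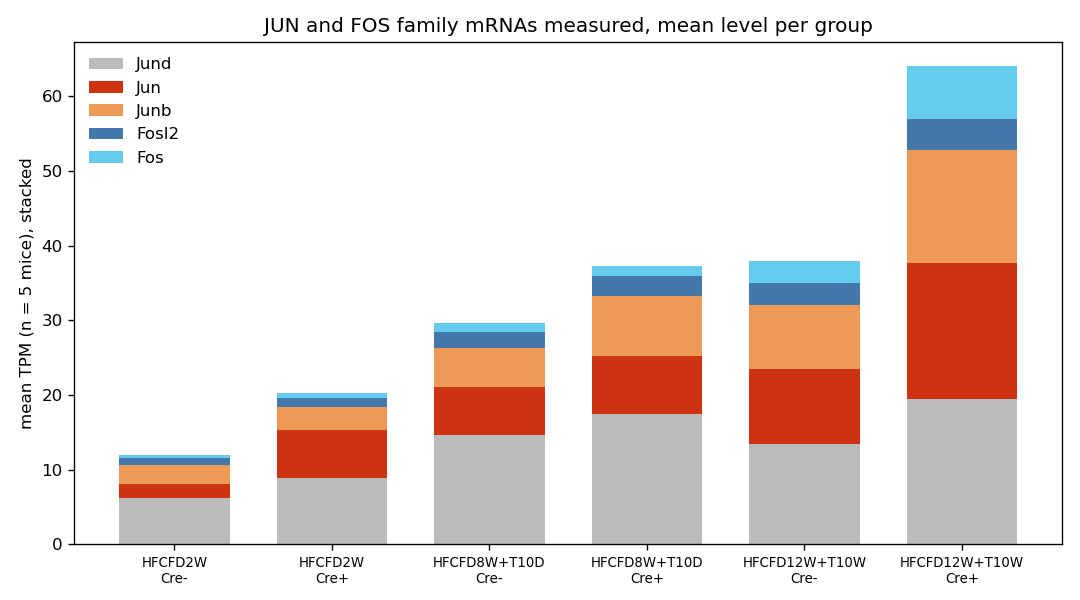
Stacked bars of the mean TPM (n = 5 mice) of *Jund*, *Jun*, *Junb*, *Fosl2* and *Fos* in each of the 6 groups, from 0 on the vertical axis. *Jund* is the largest part in every group, and *Jun* is the part that differs most between genotypes in HFCFD2W, 1.81 against 6.46 TPM.

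The first question was which of the genes differed between knockout and control livers of the same experiment. Levels per mouse are given as CPM, counts scaled to library totals that were corrected with TMM factors (trimmed mean of M values). Differences are log2 fold changes of knockout over control from the quasi-likelihood test of edgeR, and p was adjusted by Benjamini-Hochberg for the number of genes tested. A gene passed at an adjusted p under 0.05. Ranges that did not overlap are given as descriptions, because the share of all genes without overlap was not computed. In bulk liver, a change in the number of cells of a type and a change in mRNA per cell cannot be told apart. *Jun* and *Klf6* rose in knockout livers of HFCFD2W. In HFCFD8W+T10D *Klf6* and *Myc* rose, and HFCFD12W+T10W showed higher *Klf6* and *Myc*. *Ier3* also passed as higher in HFCFD8W+T10D. It reached the low-count filter there through the knockout group alone, so that call is a description only. *Klf6* was thus the only gene that passed in all 3 experiments, but *Fos*, *Klf4* and *Ier3* had too few counts for the test in HFCFD2W. The call of *Klf6* in HFCFD2W was lost in some alternatives given below.

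In HFCFD2W 2 of 7 genes tested passed, and both were higher in knockout livers, where 8.6% of all 11068 genes tested were higher and 8.09% lower. In HFCFD8W+T10D 3 of 9 passed, all higher, against 10.3% higher and 6.85% lower of 11990 genes. These 3 include *Ier3*, which entered the test through the knockout group alone, so this count is a description only. In HFCFD12W+T10W 2 of 10 passed, both higher, against 27.4% higher and 23.8% lower of 12463 genes. The share of these genes that passed in the last experiment, 2 of 10, was thus below that of all genes. None of the genes was lower with an adjusted p under 0.05 in any experiment. That count was also 0 at an unadjusted p under 0.05 and 0 with DESeq2. With a fold change over 2 required as well, *Jun* was left in HFCFD2W (1.69% of all genes) and *Ier3* in HFCFD8W+T10D (4.09%). HFCFD12W+T10W kept *Klf6* and *Myc* (14.3%). The limit on *Ier3* holds here too.

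The median log2 fold change of the genes tested was 0.14 at 2 weeks of diet (HFCFD2W), 0.30 for HFCFD8W+T10D and 0.57 for HFCFD12W+T10W, beside 0.01 over all genes tested in each experiment. The fold change was above 0 for 5 of 7, 7 of 9 and 10 of 10 genes. The genes tested include *Fos* and *Ier3* in HFCFD8W+T10D, and *Ier3* and *Klf4* in HFCFD12W+T10W, which reached the low-count filter in all knockout but not in all control libraries, so these counts and medians are descriptions only. With 1 mouse left out the median ran from 0.015 (control replicate 5) to 0.37 (knockout replicate 3) in HFCFD2W and from 0.26 (knockout replicate 3) to 0.95 (control replicate 3) in HFCFD12W+T10W. The scaling of libraries mattered for these values. With library totals in place of TMM, the median of all genes moved to 0.19 (HFCFD8W+T10D) and 0.38 (HFCFD12W+T10W), and to 0.03 in HFCFD2W. The part of passing genes that was higher then went from 60.0% to 84.1% and from 53.5% to 88%. With those totals 2023 genes were higher and 382 lower of 11990 in HFCFD8W+T10D. In HFCFD12W+T10W 7049 were higher and 962 lower of 12463. Calls of single genes with library totals are read against these numbers. The median of the AP-1 and immediate early genes tested went to 0.48 and 0.95, so every difference given here is relative to the TMM centre.

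**Figure D2:**
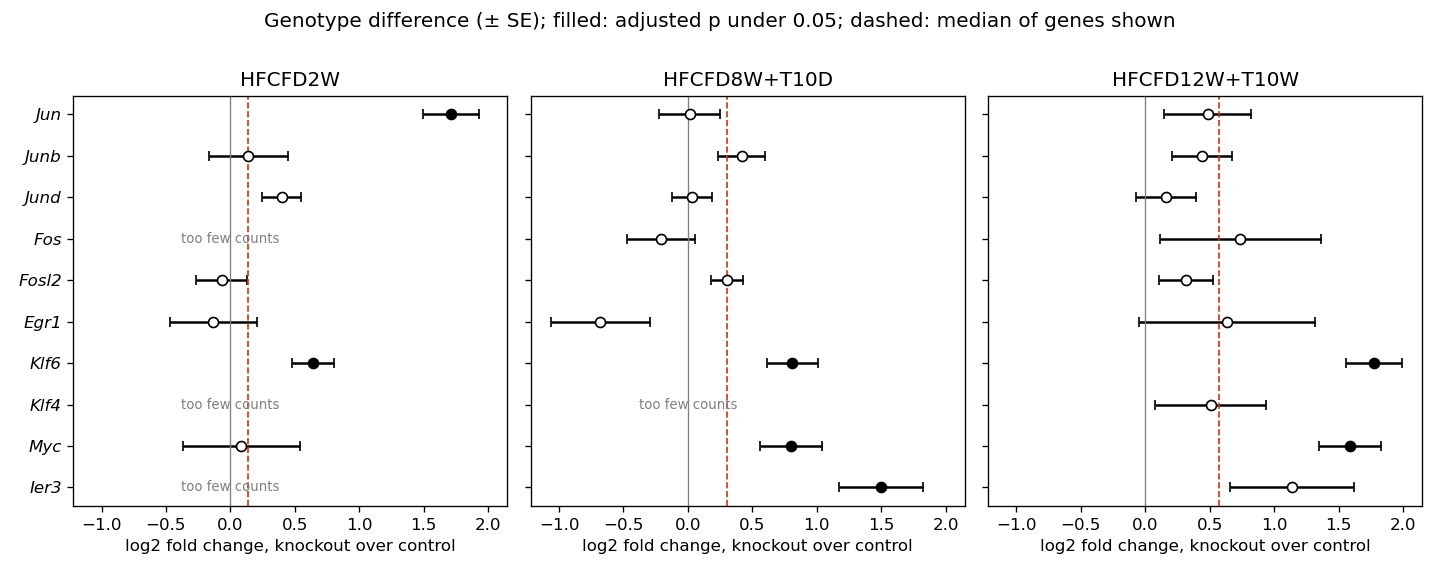
Log2 fold change of knockout over control (horizontal axis, points with bars of ± 1 SE) for the 10 genes in each experiment. Filled points passed at an adjusted p under 0.05, the dashed line is the median of the genes tested, and genes with too few counts have no point; *Jun* stands at 1.71 in HFCFD2W and 0.01 in HFCFD8W+T10D.

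*Jun* encodes the AP-1 subunit that is induced in growing and injured hepatocytes. In HFCFD2W it measured 4.31, 4.83, 6.53, 6.53 and 7.57 CPM in the control mice and 13.7, 16.5, 16.8, 20.4 and 29.3 CPM in the knockout mice. Every knockout mouse stood above every control mouse. The log2 fold change was 1.71 ± 0.22 (SE), a 3.27-fold difference (adjusted p = 0.000219, edgeR), which was rank 137 by p among the 11068 genes tested.

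In HFCFD8W+T10D *Jun* measured 9.39, 17.5, 18.5, 19 and 24.8 CPM in control and 12.6, 14.1, 17, 20.5 and 25.1 CPM in knockout livers. The groups covered the same range, and the log2 fold change was 0.01 ± 0.24 (adjusted p = 0.976, edgeR). In HFCFD12W+T10W the control mice ran from 10.8 to 51.2 CPM with a median of 17.1, and the knockout mice measured 28, 30.3, 31.2, 34.7 and 45.8 CPM. Here 3 of 5 controls lay below all knockout mice while control replicate 5 lay above them all, and the difference did not pass (0.49 ± 0.34, adjusted p = 0.251). Without that mouse it was 0.93 (adjusted p = 0.00806, edgeR), and with library totals in place of TMM 0.86 (adjusted p = 0.0462).

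*Junb* and *Jund*, the other JUN genes, did not pass in any experiment. The log2 fold changes of *Junb* were 0.14 ± 0.31, 0.42 ± 0.18 and 0.44 ± 0.24 in HFCFD2W, HFCFD8W+T10D and HFCFD12W+T10W. With library totals *Junb* passed in HFCFD12W+T10W, at 0.82 (adjusted p = 0.00794, edgeR). Those of *Jund* were 0.40 ± 0.15 (adjusted p = 0.0894), 0.03 ± 0.16 and 0.16 ± 0.23. *Jund* passed in HFCFD2W when control replicate 4 was left out (0.50, adjusted p = 0.0408) and in HFCFD12W+T10W when control replicate 5 was left out (0.45, adjusted p = 0.0347). In all 6 groups *Jund* varied at most 2.63-fold between mice.

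*Fos*, the partner that is most transient after a stimulus, was near its counting limit in HFCFD2W, with 3 to 8 counts per control library and 4 to 12 per knockout library. It had too few counts there for the edgeR test. An exact two-sided permutation test over all arrangements of the 10 mice gave p = 0.222 (log2 CPM difference 0.40, knockout minus control; the smallest possible p is 0.00794). In HFCFD8W+T10D the log2 fold change was -0.21 ± 0.26. In HFCFD12W+T10W *Fos* measured 1.19, 1.93, 2.64, 4.64 and 12.8 CPM in control and 3.31, 3.56, 4.69, 6.56 and 19.3 CPM in knockout livers, with overlapping ranges. The log2 fold change of 0.74 ± 0.62 did not pass (adjusted p = 0.348, edgeR). Without control replicate 3, the highest control, it was 1.53 (adjusted p = 0.048), and without knockout replicate 3 it was 0.0029 (adjusted p = 0.997).

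*Fosl2*, which encodes the AP-1 subunit FRA-2, did not pass in any experiment, with differences of -0.07 ± 0.20, 0.30 ± 0.12 and 0.32 ± 0.21 (log2) in the same order. In HFCFD8W+T10D 4 of 5 knockout mice, at 12.3 to 16.1 CPM, were above the highest control at 11.6 CPM, with an adjusted p of 0.112 in edgeR. With library totals in place of TMM *Fosl2* passed there at 0.48 (adjusted p = 0.027) and in HFCFD12W+T10W at 0.69 (adjusted p = 0.011).

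*Klf6*, a zinc-finger factor first described in activated hepatic stellate cells and also made by hepatocytes, measured 4.60, 4.75, 4.90, 5.82 and 6.07 CPM in controls of HFCFD2W and 6.28, 7.03, 8.46, 8.52 and 10.5 CPM in knockout mice. The groups did not overlap, although the lowest knockout mouse was close to the highest control. The log2 fold change was 0.64 ± 0.16 (adjusted p = 0.0165, edgeR). In a single fit of all 30 libraries this call was lost, with an adjusted p of 0.0879. It was also lost with the replicate number as a block in the edgeR test (adjusted p = 0.103).

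In HFCFD8W+T10D *Klf6* measured 9.85, 13.4, 16.5, 17.6 and 22 CPM in control and 20.4, 26, 26.9, 29 and 35.4 CPM in knockout livers. One knockout mouse fell within the control range, and the log2 fold change was 0.81 ± 0.20 (adjusted p = 0.0146, edgeR). In HFCFD12W+T10W controls measured 7.96, 9.97, 12.1, 18 and 19.1 CPM and knockout mice 34.4, 42.1, 44.3, 44.5 and 58.5 CPM. The groups stood well apart there, with a 3.42-fold difference (log2 1.78 ± 0.22, adjusted p = 2.65e-05).

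*Myc* encodes the growth regulator that drives ribosome biogenesis and cell cycle entry. In HFCFD2W its ranges overlapped, and 1 knockout mouse, replicate 6, stood at 6.45 CPM above the other 4 at 1.49 to 1.92 CPM. The log2 fold change was 0.08 ± 0.45, and -0.51 without that mouse; it did not pass in either case. In HFCFD8W+T10D *Myc* measured 2.44, 3.36, 3.84, 3.94 and 5.05 CPM in control and 3.84, 5.81, 5.96, 7.65 and 8.64 CPM in knockout livers. The difference of 0.80 ± 0.24 passed narrowly (adjusted p = 0.0361, edgeR). It was lost on leaving out any of 7 of the 10 mice, control replicates 1, 3, 4 and 5 and knockout replicates 2, 3 and 5, with adjusted p from 0.0612 to 0.0929. It was also lost in the fit of all libraries (adjusted p = 0.0643) and with limma on the authors' normalized table (adjusted p = 0.0559).

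In HFCFD12W+T10W *Myc* measured 1.41, 1.81, 2.30, 2.41 and 3.92 CPM in control and 5.38, 5.67, 7.30, 7.45 and 8.61 CPM in knockout livers. No knockout mouse overlapped the controls, and the difference was 3.01-fold (log2 1.59 ± 0.24, adjusted p = 0.000132, edgeR). It passed without any 1 of the 10 mice.

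*Ier3*, a stress-induced gene that modulates cell survival and ERK signalling, had 1 to 5 counts per library in HFCFD2W, where the exact permutation test gave p = 0.452 (log2 CPM difference 0.22). In HFCFD8W+T10D it measured 0.259, 0.579, 0.787, 0.813 and 0.927 CPM in control livers, from 2 to 8 counts. In knockout livers it measured 1.33, 1.42, 2.06, 2.15 and 2.63 CPM, from 12 to 32 counts. All knockout mice were above all controls, and the log2 fold change was 1.5 ± 0.33 (adjusted p = 0.00879, edgeR). No control library and all 5 knockout libraries reached the count of the low-count filter, so *Ier3* entered this test through the knockout group alone. Its call is thus a description only.

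In HFCFD12W+T10W *Ier3* measured 0.356, 0.453, 1.38, 1.8 and 3.23 CPM in control and 1.57, 1.92, 3.60, 4.21 and 4.56 CPM in knockout livers. The ranges overlapped, and the log2 fold change of 1.14 ± 0.48 missed the threshold (adjusted p = 0.0645, edgeR). It passed without control replicate 5 (1.68, adjusted p = 0.011), without knockout replicate 1 (1.31, adjusted p = 0.0423) and in the fit of all libraries (1.10, adjusted p = 0.0165).

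*Egr1*, the zinc-finger factor downstream of ERK and serum response factor, did not pass in any experiment. In HFCFD8W+T10D controls measured 2.43, 8.53, 8.93, 10.5 and 19.8 CPM and knockout mice 4.37, 4.74, 6.65, 6.93 and 8.23 CPM. The knockout values lay inside the control range, with a log2 fold change of -0.68 ± 0.39 (adjusted p = 0.258, edgeR). It passed as lower when control replicate 3, the lowest, was left out (-0.93, adjusted p = 0.0389). In HFCFD12W+T10W controls measured 3.40, 5.35, 10.6, 27.4 and 60.5 CPM and knockout mice 11.9, 15.3, 17.2, 52.8 and 64.3 CPM. Both groups held 2 mice far above the other 3, and the log2 fold change was 0.63 ± 0.69 (adjusted p = 0.468). It ran from 0.22 without knockout replicate 3 to 1.47 without control replicate 3, and passed in neither case.

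*Klf4*, a zinc-finger factor known from endothelial cells and macrophages, had too few counts for edgeR in HFCFD2W and HFCFD8W+T10D. Its exact permutation p was 0.238 in HFCFD2W (log2 CPM difference 0.30). It was 0.0714 in HFCFD8W+T10D, where the difference was -0.67 and a knockout library held 1 count. In HFCFD12W+T10W the log2 fold change was 0.51 ± 0.43 (adjusted p = 0.348, edgeR).

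**Figure D3:**
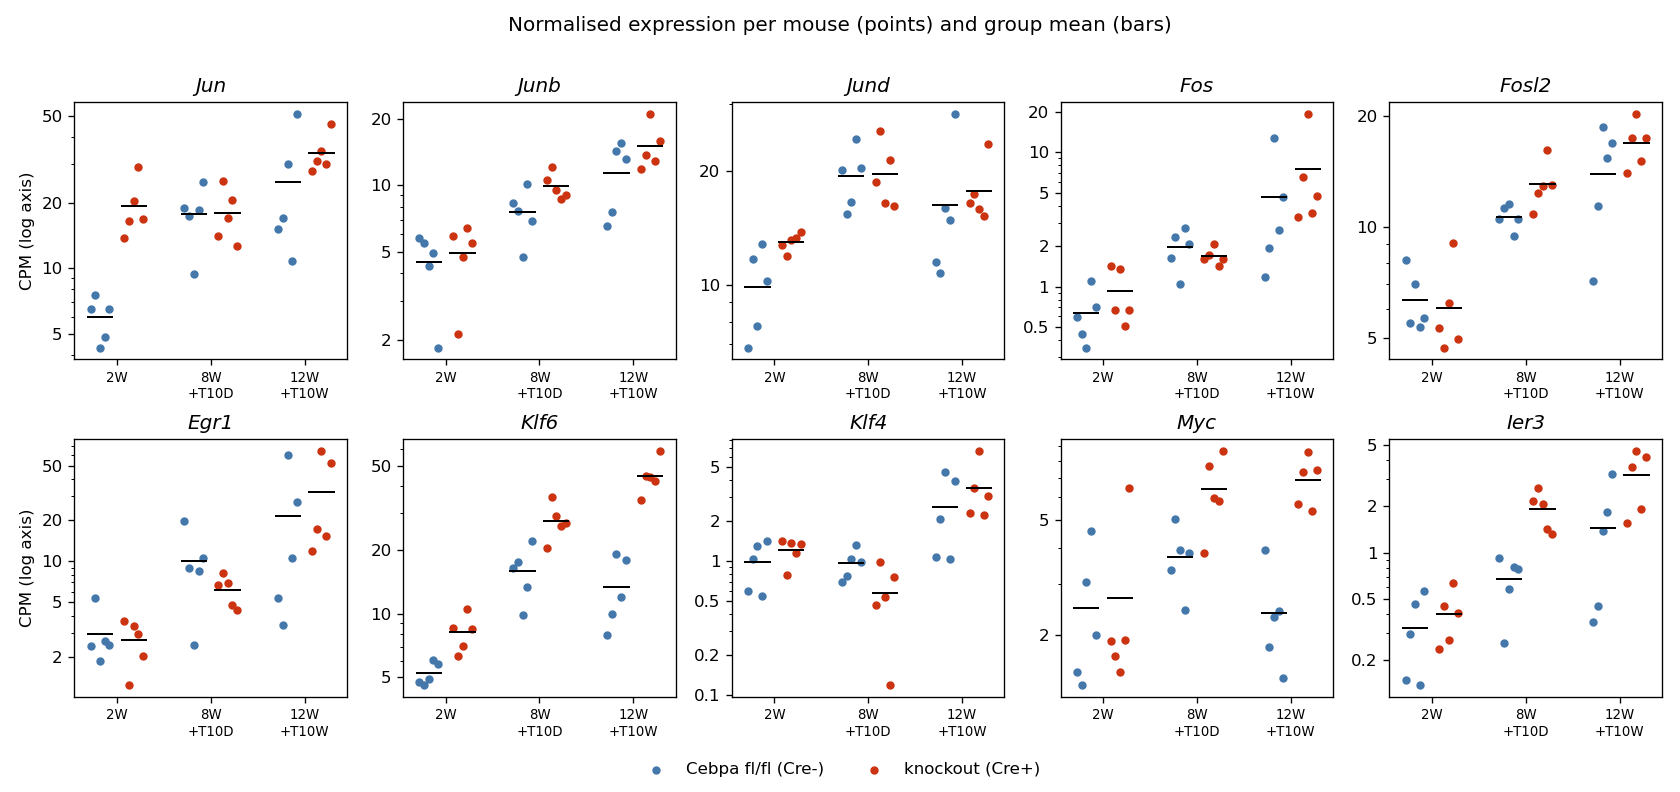
CPM of each gene in each of the 30 mice (vertical axis, logarithmic), by experiment and genotype; points are mice and black bars group means. *Jun* in HFCFD2W, *Klf6* in HFCFD2W and HFCFD12W+T10W, *Myc* in HFCFD12W+T10W and *Ier3* in HFCFD8W+T10D show knockout mice that all stand above the controls. The share of all genes with such ranges was not computed.

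Whether the genotype effect itself differed between experiments was tested as interactions in 1 fit of all 30 libraries, in which 12964 genes were tested. The *Jun* effect was smaller in HFCFD8W+T10D than in HFCFD2W by 1.71 ± 0.46 on the log2 scale (adjusted p = 0.0139, edgeR), where 11.2% of all genes passed. It was also smaller in HFCFD12W+T10W than in HFCFD2W, with a log2 difference of -1.26 ± 0.45 (adjusted p = 0.0323), where 30.7% of all genes passed. The latter was lost on leaving out any of 8 mice, with adjusted p from 0.0545 to 0.127, the highest without control replicate 5 of HFCFD12W+T10W. The others were control replicates 3 and 4 and knockout replicate 5 of HFCFD2W, and control replicate 3 and knockout replicates 1, 2 and 4 of HFCFD12W+T10W. This call was also lost with upper quartile scaling (-1.14, adjusted p = 0.0566) and with library totals (-0.87, adjusted p = 0.134).

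The *Klf6* effect was larger in HFCFD12W+T10W than in HFCFD2W, with a log2 difference of 1.10 ± 0.32 (adjusted p = 0.00989, edgeR). It also exceeded that of HFCFD8W+T10D, by 0.94 ± 0.28 (adjusted p = 0.0293), where 10.5% of all genes passed. The first of these passed without any 1 of the 30 mice. The second was lost on leaving out any of 6 mice, with adjusted p from 0.0535 to 0.0721: control replicate 5 and knockout replicates 1 and 4 of HFCFD8W+T10D, and control replicates 1 and 2 and knockout replicate 5 of HFCFD12W+T10W. The *Myc* effect was larger in HFCFD12W+T10W than in HFCFD2W, a log2 difference of 1.46 ± 0.50 (adjusted p = 0.0278), and this was lost on leaving out any of 5 mice of HFCFD2W, control replicates 3 and 4 and knockout replicates 2, 3 and 4, with adjusted p from 0.0507 to 0.0955. None of the other 7 genes passed in any of the 3 contrasts. With library totals in place of TMM, the part of passing genes with the larger effect in the longer experiment went from 39.6% to 77% for HFCFD8W+T10D minus HFCFD2W and from 43.6% to 87% for HFCFD12W+T10W minus HFCFD2W. It went from 47.5% to 83.4% for HFCFD12W+T10W minus HFCFD8W+T10D. For *Ier3* the difference between HFCFD8W+T10D and HFCFD2W was 1.21 ± 0.84 (adjusted p = 0.388).

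In control livers, all but *Myc* were higher in at least 1 of the longer experiments than in HFCFD2W. In HFCFD8W+T10D 6 of 10 genes were higher, *Jun*, *Junb*, *Jund*, *Fosl2*, *Egr1* and *Klf6*, where 22.2% of all genes were higher and 21.5% lower. In HFCFD12W+T10W 9 of 10 were higher, where 19.8% of all genes were higher and 19.4% lower. None was lower in either contrast, also at an unadjusted p under 0.05. The largest differences were those of *Egr1* (log2 2.89 ± 0.66, adjusted p = 0.00104) and *Fos* (2.84 ± 0.62, adjusted p = 0.000713), followed by *Ier3* (2.12 ± 0.55) and *Jun* (2.08 ± 0.34, adjusted p = 2.49e-05, edgeR). *Myc* differed by -0.09 ± 0.38. Of the 9 genes, *Fos*, *Klf4* and *Ier3* were too low for the test within HFCFD2W. Their control libraries there held 3 to 8, 4 to 11 and 1 to 4 counts. *Klf4* was also too low within HFCFD8W+T10D, with 6 to 13 counts per control library. These genes reached the low-count filter of this fit with libraries of other groups, so the number of genes higher and their differences are descriptions only. Between the controls of HFCFD12W+T10W and HFCFD8W+T10D only *Klf4* passed (1.38 ± 0.41, adjusted p = 0.0254), where 6.31% of all genes were higher and 5.12% lower. With library totals, higher genes made up 76.2%, 83.2% and 67.9% of those passing in these 3 contrasts in place of 50.8%, 50.5% and 55.2%, and the same number of the 10 genes, 9, differed between controls.

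Some of these calls rested on single mice. The call of *Junb* in HFCFD8W+T10D was lost without control replicate 3 or 5 of HFCFD2W or control replicate 1 or 4 of HFCFD8W+T10D, with adjusted p up to 0.102 (edgeR). That of *Egr1* there was lost without control replicate 1, 3, 4 or 5 of HFCFD2W or 1 or 5 of HFCFD8W+T10D (up to 0.119). In HFCFD12W+T10W against HFCFD2W, *Jund* was lost without control replicate 5 of HFCFD12W+T10W (0.0583) and *Klf4* without control replicate 3 (0.0549). *Klf4* between the longer experiments was lost without control replicate 1, 2 or 3 of HFCFD8W+T10D or 3 or 5 of HFCFD12W+T10W (up to 0.114).

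Ordered by mean CPM over the 6 groups, *Jun* was lowest in controls of HFCFD2W, 5.95 ± 1.34 CPM (SD, n = 5), and highest in knockout livers of HFCFD12W+T10W, 34.0 ± 7.03 CPM. The lowest group did not overlap its neighbour in that order, while each further pair of neighbours overlapped. The knockout livers of HFCFD2W, at 19.3 ± 6.03 CPM, thus overlapped both groups of HFCFD8W+T10D, at 17.8 ± 5.52 and 17.9 ± 5.05 CPM. *Klf6* went from 5.23 ± 0.67 CPM in controls of HFCFD2W to 44.8 ± 8.7 CPM in knockout livers of HFCFD12W+T10W, and only the lowest pair of neighbours did not overlap. *Myc* had its lowest mean in controls of HFCFD12W+T10W, 2.37 ± 0.95 CPM, and its highest in knockout livers of the same experiment, 6.88 ± 1.34 CPM, and all neighbours in its order overlapped. So did all neighbours in the orders of *Junb*, *Jund*, *Egr1*, *Klf4* and *Ier3*. In those of *Fos* and *Fosl2* the 2 groups of HFCFD2W came lowest, and the higher of them did not overlap the next group. *Junb*, *Fos*, *Fosl2*, *Egr1*, *Klf4* and *Ier3* also had their highest mean in knockout livers of HFCFD12W+T10W. *Jund* had its highest in knockout livers of HFCFD8W+T10D, 19.6 ± 3.89 CPM.

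The spread between mice of 1 group was wide for some of the genes. Among controls of HFCFD12W+T10W *Egr1* varied 17.8-fold, *Fos* 10.7-fold and *Ier3* 9.07-fold between the lowest and the highest mouse. *Klf6* varied 2.4-fold in that group. In the knockout livers of HFCFD12W+T10W *Egr1* varied 5.38-fold and *Klf6* 1.7-fold. Control replicates 3 and 5 held the highest and second highest values of *Egr1*, *Fos*, *Jun*, *Klf4*, *Jund*, *Klf6* and *Fosl2* in the group, in either order.

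Whether the genes varied together between mice of 1 group was tested on log2 CPM with each group's mean removed, over 30 mice and 45 pairs of genes, with a permutation test within groups and adjustment over the 45 pairs. The correlation passed in 9 pairs by Pearson's r and in 7 by Spearman's rho, all of them positive, and the median r of the 45 pairs was 0.434. *Fos* and *Egr1* had r = 0.726 (adjusted permutation p = 0.0146) and rho = 0.621 (adjusted permutation p = 0.0262). *Egr1* and *Klf6* had r = 0.707 and rho = 0.649, with adjusted permutation p of 0.0146 and 0.0192, and *Jun* and *Klf6* r = 0.697 and rho = 0.634, with 0.0146 and 0.0213. Without the 2 mice farthest from the median of the first gene these r were 0.578, 0.644 and 0.725.

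Values of r were also taken within each experiment, and differences between them were not tested. For *Fos* and *Egr1*, r was 0.292 among mice of HFCFD2W, 0.544 among those of HFCFD8W+T10D and 0.855 among those of HFCFD12W+T10W (n = 10 mice each). For *Jun* and *Klf6* it was 0.221, 0.837 and 0.767. *Junb* and *Egr1* (pooled r = 0.633, rho = 0.659, adjusted permutation p = 0.0146 and 0.0182) had r of 0.563, 0.755 and 0.806. *Myc* stood apart from the rest: its r with the other 9 genes ran from -0.296 to 0.126 with a median of -0.10, and none of these pairs passed. The median r of *Egr1* with the other 9 genes was 0.554, beside 0.00 with the 12954 other genes tested. Values of 1 library share its depth and RNA quality.

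**Figure D4:**
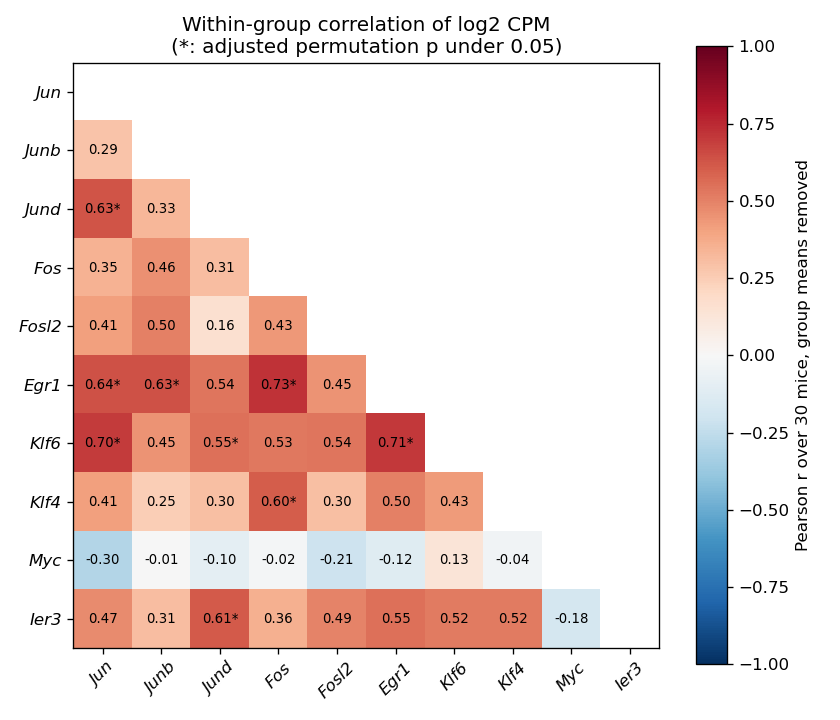
Pearson r of log2 CPM over 30 mice after removal of the 6 group means, for the 45 pairs of genes (colour scale from -1 to 1); stars mark pairs with an adjusted permutation p under 0.05. The row of *Myc* is near 0 or below, while *Fos* and *Egr1* reach 0.73.

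Over all 30 mice with group means kept, the genes outside the list with the pattern most like each member were named by Pearson's r of log2 CPM. For *Jun* these were *Acer2* (r = 0.87), *Btg2* (0.856) and *Jdp2* (0.853), of which *Btg2* is an immediate early antiproliferative gene and *Jdp2* an AP-1 repressor. For *Fos* and *Egr1* the first was *Nr4a1*, an immediate early nuclear receptor, with r = 0.825 and 0.835. For *Klf6* they were *Pfkp*, *Plekha2* and *Rassf2*, each with r of at least 0.952, for *Myc* *Ttc28* (0.819), *Cbr3* (0.811) and *Tgfb3* (0.80), and for *Ier3* *AU020206*, *Pik3r5* and *Arpc1b* (0.893 to 0.895). With group means removed these r were all lower. *Btg2* had r = 0.826 with *Jun*, *Acer2* 0.632 and *Jdp2* 0.668. *Nr4a1* had 0.763 with *Egr1* and 0.731 with *Fos*. For *Klf6*, *Pfkp* had 0.662, *Plekha2* 0.547 and *Rassf2* 0.773. The genes named for *Myc* fell to 0.439 to 0.534, and those for *Ier3* to 0.555 to 0.656. These values are descriptions over mice that share 6 groups.

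Of 16 known AP-1 target genes, 1 of 7 tested was higher in knockout livers of HFCFD2W. In HFCFD8W+T10D 6 of 10 were higher and HFCFD12W+T10W had 10 of 12, beside 8.6%, 10.3% and 27.4% of all genes, and none was lower, nor at an unadjusted p under 0.05 or with DESeq2. The median log2 fold changes of the genes tested were 0.21, 0.99 and 1.55, beside 0.01 over all genes. The number tested rose from 7 to 12 in part because genes reached the low-count filter in all knockout but not in all control libraries. Among these were *Mmp12* in HFCFD8W+T10D and *Ccl2*, *Mmp12*, *Mmp9*, *Plaur* and *Timp1* in HFCFD12W+T10W, all counted as higher, so the shares and medians are descriptions only. *Cd44*, a hyaluronan receptor, rose in HFCFD2W by 0.79 ± 0.17 (adjusted p = 0.00726, edgeR). *Mmp12*, the macrophage elastase, rose in HFCFD8W+T10D by 3.52 ± 0.58 (adjusted p = 0.00168), with *Lgals3* (1.49 ± 0.27) and *Ccl2* (1.99 ± 0.50). In HFCFD12W+T10W *Mmp12* rose by 4.44 ± 0.22 (adjusted p = 3.39e-08), *Ccnd1*, the G1 cyclin, by 2.36 ± 0.17, and *Vim*, an intermediate filament of mesenchymal cells, by 1.67 ± 0.14. The summed level of the list was 84.8 to 210.8 CPM in control and 423.4 to 481.7 CPM in knockout livers of that experiment.

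Markers of other cells moved in the same experiments. Over all genes 8.6%, 10.3% and 27.4% were higher in HFCFD2W, HFCFD8W+T10D and HFCFD12W+T10W, and 8.09%, 6.85% and 23.8% lower. Of stellate cell markers 0 of 8 tested were higher in HFCFD2W and 2 of 8 in HFCFD8W+T10D. In HFCFD12W+T10W 8 of 8 were higher, and their sum ran from 131.9 to 199.8 CPM in control and from 862.8 to 1163 CPM in knockout livers. In HFCFD2W 1 of the 8 was higher at an unadjusted p under 0.05 and 0 with DESeq2. Of macrophage markers 3 of 6, 5 of 7 and 5 of 7 were higher, and 1 was lower in HFCFD12W+T10W. Their sums were 134.4 to 171.4 against 155.6 to 244.2 CPM, 417.4 to 671.3 against 637.6 to 1072 CPM, and 179.9 to 435.8 against 424.5 to 569.0 CPM. Of cholangiocyte markers none of 2 was higher in HFCFD2W and 2 of 5 in HFCFD8W+T10D. Of these 5, 3 reached the low-count filter in all knockout but not in all control libraries. In HFCFD12W+T10W 6 of 6 were higher, 5 of which reached the low-count filter in all knockout but not in all control libraries, and the sum was 9.39 to 12.8 against 44.0 to 70.8 CPM. Of 7 hepatocyte markers 1 was higher and 1 lower in HFCFD2W, and 4 were lower in each of the longer experiments. In HFCFD2W the stellate sum was 90.2 to 208.2 against 95.7 to 264.2 CPM. The cholangiocyte sum there was 10.8 to 14.7 against 9.80 to 14.8 CPM, so both overlapped. The macrophage sum there also overlapped, with medians of 143.7 CPM in control and 199.7 CPM in knockout livers, and 3 of 6 of its markers were higher. Of 3 neutrophil markers tested 1 was higher in HFCFD8W+T10D and 3 in HFCFD12W+T10W, while in HFCFD2W none had enough counts and *Ly6g* was at 0 in all 10 libraries. Of lymphocyte markers 2 of 3 were higher in HFCFD12W+T10W. All 3 reached the low-count filter in all knockout but not in all control libraries. So did 2 of the 3 neutrophil markers in HFCFD8W+T10D and 1 of the 3 in HFCFD12W+T10W. The same held for 1 macrophage marker in each of the longer experiments and 1 stellate marker in HFCFD12W+T10W. These shares are thus descriptions only. Of 6 endothelial markers 1 was lower in HFCFD8W+T10D, and 1 was higher and 1 lower in HFCFD12W+T10W. Of 3 erythroid markers 1 was lower in HFCFD2W, 2 were higher in HFCFD8W+T10D, and 1 was higher and 1 lower in HFCFD12W+T10W. The part of these cells in the values of *Klf6*, *Myc*, *Ier3*, *Jun* and the AP-1 targets was not tested.

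**Figure D5:**
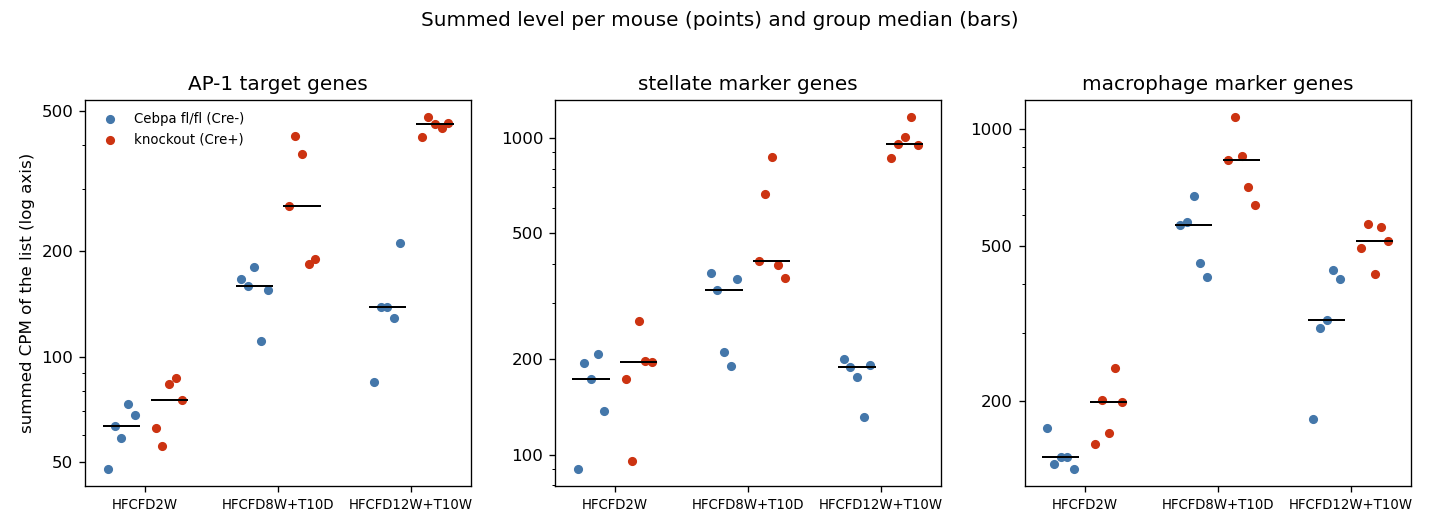
Summed CPM per mouse (vertical axis, logarithmic) of 16 AP-1 target genes, 8 stellate cell markers and 7 macrophage markers, by experiment and genotype; points are mice and bars group medians. In HFCFD12W+T10W the knockout livers lie above all controls for the AP-1 targets (423.4 to 481.7 CPM against 84.8 to 210.8) and the stellate markers.

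Among the other AP-1 and related bZIP genes 2 were higher and 1 lower of 7 tested in HFCFD2W, and HFCFD8W+T10D had 0 of 9 passing (1 higher and 1 lower with DESeq2, as at an unadjusted p under 0.05). Of 9 in HFCFD12W+T10W, 3 were higher and 2 lower, beside 27.4% and 23.8% of all genes. With library totals in place of TMM 6 were higher and 2 lower, where 7049 of all 12463 genes were higher and 962 lower. In HFCFD2W *Maff*, a small MAF protein, rose by 1.21 ± 0.27 and *Maf* by 0.64 ± 0.13, while *Mafg* fell by 0.35 on the log2 scale (adjusted p = 0.01, 0.00592 and 0.0229, edgeR). In HFCFD12W+T10W *Atf3*, the stress-induced JUN partner, rose by 2.09 ± 0.41 (adjusted p = 0.00101, edgeR), while *Mafg* fell by 0.67. *Atf3* reached the low-count filter in all 5 knockout libraries but in only 3 control libraries.

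Of the other immediate early genes 5 were higher and 1 lower of 26 in HFCFD2W. For HFCFD8W+T10D these numbers were 2 and 2 of 29, and for HFCFD12W+T10W 8 and 5 of 30. With library totals in place of TMM they were 14 and 2 in HFCFD12W+T10W, where 7049 of all 12463 genes were higher and 962 lower. With TMM, 27.4% of all genes were higher and 23.8% lower in that experiment. The share that was higher with TMM was thus close to that of all genes. In HFCFD2W and HFCFD8W+T10D these shares over all genes were 8.6% and 8.09%, and 10.3% and 6.85%. Their medians were 0.19, -0.14 and 0.00. In HFCFD2W *Plk3* rose by 1.2 ± 0.22 and *Ppp1r15a*, which ends the translational block of the stress response, by 0.91 ± 0.16, while *Ccn1* fell by 0.95. In HFCFD8W+T10D *Ier5* rose by 1.03 ± 0.26, while *Btg1* fell by 0.74 and *Dusp1*, the phosphatase that switches off MAP kinases, by 1.33 (adjusted p = 0.0144, edgeR). In HFCFD12W+T10W *Plk2* rose by 1.58 ± 0.21 and *Ccn2*, a profibrotic matricellular protein, by 1.38 ± 0.22, while *Klf9* fell by 0.53.

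Upstream, the mRNAs of 23 MAP kinases and SRF cofactors passed in both directions, 1 higher and 2 lower in HFCFD2W, 3 and 2 after 10 days of tamoxifen (HFCFD8W+T10D), and 6 and 8 after 10 weeks (HFCFD12W+T10W). In HFCFD12W+T10W 27.4% of all genes were higher and 23.8% lower, in HFCFD8W+T10D 10.3% and 6.85%, and in HFCFD2W 8.6% and 8.09%. These counts are read against those shares. *Rps6ka1* and *Map2k3* fell by 0.77 and 0.35 in HFCFD2W, where *Mrtfa*, the actin-regulated SRF cofactor, rose by 0.55 ± 0.15. *Map3k1*, a kinase above JNK, rose by 0.87 ± 0.17 in HFCFD8W+T10D and by 1.26 ± 0.15 in HFCFD12W+T10W, and *Mapk3* (ERK1) by 0.46 ± 0.11 and 0.74 ± 0.09. *Map3k5* fell by 0.91 in HFCFD8W+T10D, and *Rps6ka3* rose by 0.81 ± 0.10 in HFCFD12W+T10W. With library totals in place of TMM, 14 were higher and 1 lower in HFCFD12W+T10W, where 7049 of all 12463 genes were higher and 962 lower. Kinase activity is not read from mRNA.

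Of 16 MYC target genes 5 were higher in HFCFD2W and 0 passed in HFCFD8W+T10D, also 0 with DESeq2, while 1 was higher and 1 lower at an unadjusted p under 0.05. In the last experiment 3 rose and 1 fell, and the medians in the 3 experiments were 0.22, -0.01 and 0.02. With library totals in place of TMM 11 rose and 0 fell in HFCFD12W+T10W, where 7049 of all 12463 genes were higher and 962 lower. Over all genes with TMM, 8.6%, 10.3% and 27.4% were higher and 8.09%, 6.85% and 23.8% lower in the 3 experiments. With TMM, the share of targets that passed in HFCFD12W+T10W was thus below that of all genes. The summed level of the targets in HFCFD2W was 1411 to 1798 CPM in control and 1250 to 1714 CPM in knockout livers, with overlap. *Nolc1*, a nucleolar factor, rose in HFCFD2W by 0.90 ± 0.10 (adjusted p = 0.000108, edgeR), where *Myc* itself did not pass, and *Nop58* and *Gnl3* rose with it by 0.68 ± 0.11 and 0.60 ± 0.13. In HFCFD12W+T10W, where *Myc* rose 3.01-fold, *Cad* rose by 0.94 ± 0.19 and *Cdk4* by 0.38 ± 0.11, while *Nolc1* fell by 0.32. Of the MYC partners 0 of 8 passed in HFCFD2W or HFCFD8W+T10D, with 1 higher by DESeq2 in each. At an unadjusted p under 0.05 1 was higher in HFCFD2W, and 1 was higher and 1 lower in HFCFD8W+T10D. In HFCFD12W+T10W 2 were higher and 2 lower of 9. With library totals in place of TMM 5 were higher and 0 lower there, beside the same numbers of all genes as for the targets. *Mycn* rose by 1.57 ± 0.51, from means of 0.369 to 1.06 CPM, and *Mxi1*, a MYC antagonist, fell by 0.57 (adjusted p = 0.000118, edgeR). For *Mycn* no control library and all 5 knockout libraries reached the count of the low-count filter, so it entered this test through the knockout group alone.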

How the data were processed

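RSEM expected counts per gene were deposited by the authors without normalization, per library and as 1 table, which differed by 0. They also deposited TPM per library and a TMM-normalized signal table. A table of RPKM was not used. The submitters' processing notes name Trimmomatic 0.36, STAR 2.5.1, Picard 1.84, RSEM 1.2.22, DESeq2 and mm10, and all 55450 identifiers are in GENCODE M21. RSEM splits reads shared by several genes.

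Rounded expected counts entered edgeR 4.0.16 (R 4.3.3), with filterByExpr as the filter on low counts, TMM scaling and the quasi-likelihood test between the genotypes of an experiment. Log2 CPM used a prior count of 2. Library totals limit precision for *Fos*, *Klf4* and *Ier3*. No library was a copy of another of its group, and copies across groups were not looked for. Alternatives were DESeq2 1.42.0, limma 3.58.1 on log2(value + 1) of the authors' signal table, upper quartile scaling, no low-count filter, 1 fit over the 3 experiments, a block for the replicate number and each mouse left out. Scaling by library totals was added after seeing the data. The edgeR and correlation steps were tested on simulated data.

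The 10 genes, the lists and the tests were chosen with earlier results of these data known. All 10 genes are named throughout. From each list of related genes, at most 3 with the smallest p among those passing per experiment are named, except genes that are not reported here, and for each of the 10 genes the 3 most alike genes were found.

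Replicate numbers were checked for pairing on the 2000 most variable genes: correlations of same-numbered mice ran from -0.227 to 0.159 over the experiments, so they were not taken as pairs. Permutation p-values of correlations rest on 100000 resamples, or 20000 with a mouse left out.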

Additional observations from a re-analysis of the deposited data

Results flagged for a closer look

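In 3 of 60 combinations of gene and group, 1 mouse stood far from the other 4 by Dixon's criterion for 5 samples (gap over range above 0.71), and chance gives about 1 in 20. *Junb* was lowest in control replicate 5 of HFCFD2W, at a log2 CPM of 1.05 (1.8 CPM, the next mouse 4.31 CPM). It was also lowest in knockout replicate 3 of HFCFD2W, at 1.23 (2.13 CPM, the next 4.73 CPM). *Myc* was highest in knockout replicate 6 of HFCFD2W, at 2.74 (6.45 CPM, the next 1.92 CPM).

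In 5 cases the genotype effect of a gene differed between experiments in the interaction test. On the log2 scale these were *Jun* in HFCFD8W+T10D minus HFCFD2W (-1.71) and in HFCFD12W+T10W minus HFCFD2W (-1.26), *Klf6* in HFCFD12W+T10W minus HFCFD2W (1.10) and minus HFCFD8W+T10D (0.94), and *Myc* in HFCFD12W+T10W minus HFCFD2W (1.46).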

How the results depend on the processing

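The number of genes passing in HFCFD2W went from 2 to 1 in a fit of all libraries, at an adjusted p under 0.01 and with a fold change over 2 required, and ran from 2 to 3 with a mouse left out. In HFCFD8W+T10D it went from 3 to 1 with each of these stricter thresholds, and ran from 2 to 3 with a mouse left out. The gene left by both thresholds was *Ier3*, which entered that test through the knockout group alone. In HFCFD12W+T10W it went from 2 to 6 with library totals in place of TMM (added after seeing the data). With those totals 8011 of all 12463 genes passed there. It ran from 2 to 5 with a mouse left out, 5 without control replicate 5. The pairs of genes whose correlation passed ran from 4 to 12 with a mouse left out. They fell to 4 or 5 without knockout replicate 2 of HFCFD8W+T10D or without control replicate 1 or 5 or knockout replicate 1, 4 or 5 of HFCFD12W+T10W. Of the 4 cases too low for edgeR (*Fos*, *Ier3* and *Klf4* in HFCFD2W, *Klf4* in HFCFD8W+T10D), 0 to 1 passed the exact test with a mouse left out, 1 without knockout replicate 2 of HFCFD8W+T10D. With a mouse left out, the median log2 fold change of the genes tested ran from 0.015 (without control replicate 5) to 0.37 (without knockout replicate 3) in HFCFD2W, from 0.21 to 0.35 in HFCFD8W+T10D, and from 0.26 (without knockout replicate 3) to 0.95 (without control replicate 3) in HFCFD12W+T10W. The 3 genes whose effect differed between experiments became 2 to 4 over the alternatives, and the 9 that differed between controls 8 to 9.

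With the replicate number as a block, the number of genes passing went from 2 to 1 in HFCFD2W and from 2 to 7 in HFCFD12W+T10W, where *Jun*, *Junb*, *Fos*, *Egr1* and *Ier3* were added. The numbers did not pair the mice by the check of all genes, since 1 of 8, 2 of 10 and 1 of 10 mice correlated best with their own number in HFCFD2W, HFCFD8W+T10D and HFCFD12W+T10W. In the block, *Fosl2* and *Myc* in HFCFD2W turned to 0.073 and -0.57, and the difference of *Jun* between HFCFD12W+T10W and HFCFD2W lost its call (-1.14, adjusted p = 0.0502, edgeR).

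Signs turned only for genes that did not pass. For *Jun* in HFCFD8W+T10D the log2 fold change was -0.0059 without the low-count filter and -0.00047 in the fit of all libraries, and ran from -0.15 to 0.16 with a mouse left out. In the same way *Jund* ran from -0.089 to 0.12 there, and in HFCFD2W *Junb* from -0.057 to 0.34, *Fosl2* from -0.26 to 0.028, *Egr1* from -0.29 to 0.19 and *Myc* from -0.51 to 0.40. Of 1161 values of single genes under an alternative, 1072 kept direction and side of the threshold, 50 lost a call, 19 gained one and 20 turned sign. The cause of these changes was not tested. Detection limits by count were not computed.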
